A study of Mus musculus with 12 samples.

Results

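The genes described are those of the mouse major histocompatibility complex, measured by total RNA sequencing of liver. The group holds every gene of the count table whose symbol begins with H2-, without the 2 names that carry -ps, together with B2m, Cd74 and Ciita, which gives 44 of 38087 genes. By class they are 2 classical class I heavy chains, the class I light chain B2m and 26 non-classical class I genes. There are also 4 classical class II chains, 5 non-classical class II chains and the class II partners Cd74 and Ciita. The last 4 genes carry an H2 name without encoding a known antigen-presenting molecule. Among the non-classical class I genes, the annotation marks H2-Q3 as an unprocessed pseudogene and H2-Bl, H2-Q5 and H2-T10 as polymorphic pseudogenes. The 12 libraries came from livers of male germ-free C57BL/6j mice of 13 to 16 weeks, which had been reared without microbes. In the ghrelin group (n = 6) each mouse was given 10 µg of rat ghrelin under the skin every day for 5 days, and in the PBS group (n = 6) phosphate-buffered saline was given in the same way; both groups are labelled zeitgeber time 2. All animals lacked a microbiota, so no comparison with colonised mice was possible here.

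Class I molecules are made by nearly all nucleated cells and display peptides from inside the cell to CD8 T cells; each is a heavy chain bound to the light chain β2-microglobulin. Class II molecules are made mainly by professional antigen-presenting cells, such as dendritic cells, macrophages and B cells, and display peptides from taken-up material to CD4 T cells. In the liver, hepatocytes, sinusoidal endothelium and Kupffer cells, the resident macrophages, carry class I, while class II lies mostly on Kupffer cells, dendritic cells and B cells. Interferon-γ raises both classes, class II through the transactivator Ciita and class I through Nlrc5 and Irf1. C57BL/6 mice carry haplotype b, in which the α chain of the I-E class II molecule is not made.

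None of the histocompatibility genes was called different between ghrelin and PBS livers. Of the 44 genes, 25 passed the filter on low counts and were tested with edgeR's quasi-likelihood test, and 0 had a Benjamini-Hochberg adjusted p under 0.05, where 0.106% of the 14170 genes tested over the whole table were called. Without adjustment, 2 genes had a p under 0.05, against 13.4% of all genes tested. These were H2-Q4, lower in ghrelin livers, as were 6.94% of all genes at that limit, and H2-Ke6, higher in ghrelin livers, as were 6.44%. DESeq2 called 0 of the 21 genes to which it gave an adjusted p, against 1.87% of all genes with one. It gave none to Ciita, H2-Q2, H2-Q5 and H2-T10. At an unadjusted p under 0.05, DESeq2 had 2 of the histocompatibility genes and 2066 of all genes to which it gave a p. It gives none to genes without a count, which leaves at most 27410 genes. The values of the groups lay apart in 0 of the 25, against 0.826% of all genes. The median log2 fold change was -0.03, with 10 positive and 15 negative values, and that of all genes tested was 3.19e-05. Over the 12 livers, the class I genes with the highest levels, B2m, H2-Q10, H2-K1 and H2-D1, spanned 1.21-fold, 1.18-fold, 1.20-fold and 1.43-fold. Other class I genes ranged from 1.26-fold (H2-T22) to 3.56-fold (H2-Q2), and the tested classical class II genes spanned 2.70-fold (H2-Aa) to 3.31-fold (H2-Eb1) over the 12 livers, with high and low livers in both treatment groups.

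Hepatocyte genes marked the samples as liver. The summed level of 5 hepatocyte genes (Alb, Ttr, Apoa1, Hnf4a and Cps1) was 70433 to 86552 CPM, read counts scaled to library size, in ghrelin and 74425 to 106480 CPM in PBS livers. The total count per library was 15775059 to 22302533, so that a count of 0 allows up to 3 counts, or 0.131 to 0.188 CPM; this floor covers counting error only, because PCR copies are not independent molecules. The intervals of fold changes come from the fit over libraries and include the spread between them. No label says that every library came from a different animal; if some did not, the p-values measure a spread that may be technical. In bulk RNA, a smaller number of cells of a type and less RNA per cell cannot be told apart.

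Ordered by level per length of exon, the light chain and the secreted class I gene came first. B2m reached 1361 ± 91.0 CPM per kilobase of annotated exon (SD, n = 12), and it was followed by H2-Q10 with 381 ± 21.6, H2-K1 with 286 ± 17.5 and H2-D1 with 144 ± 16.1 CPM per kilobase. In each of these steps the gene above had the higher level in 12 of 12 libraries. Next came H2-T23 with 47.2 ± 3.69 and Cd74 with 40.8 ± 13.4 CPM per kilobase. By exon length these neighbours were not separated, since H2-T23 was above Cd74 in 7 of 12 libraries. The class II chains lay further down. H2-Ab1 had 9.68 ± 3.86, H2-Eb1 9.55 ± 4.13 and H2-Aa 7.58 ± 2.83 CPM per kilobase. By exon length these 3 and H2-Q4 (7.85 ± 1.30) exchanged places between libraries. At the lower end, the transactivator Ciita had 0.164 ± 0.0619 CPM per kilobase. The exon length counts every annotated transcript of a gene, which lowers genes with long rare transcripts. Scaled to the principal protein-coding transcript instead, B2m kept 1361 CPM per kilobase, H2-Q10 had 833, H2-K1 519 and H2-D1 176. H2-T23 had 92.7 ± 7.25 and Cd74 48.6 ± 16.0, so these neighbours lay further apart than by exon length. H2-Aa had 25.5 ± 9.53, H2-Ab1 20.5 ± 8.17, H2-Q4 11.4 ± 1.88 and H2-Eb1 11.1 ± 4.81. The first 6 kept their order, whereas H2-Aa moved above H2-Ab1 in the mean.

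**Figure D1:**
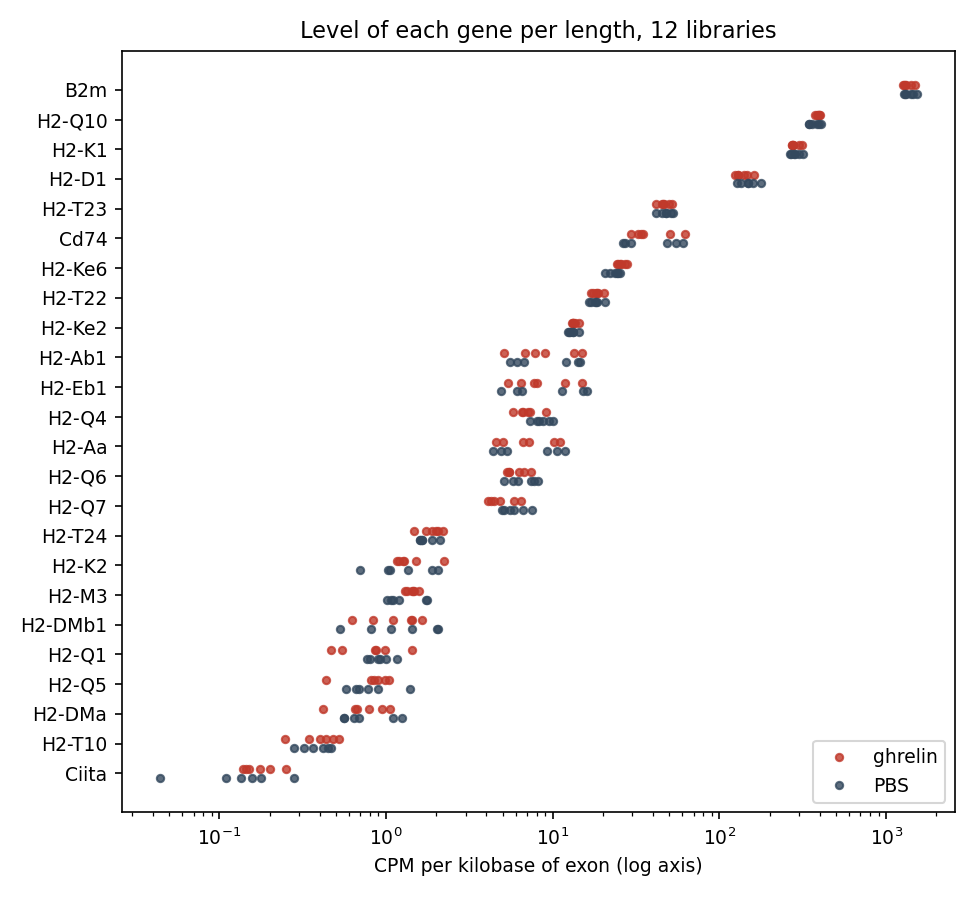
Level of the 24 tested genes with a mean of at least 1 CPM, in CPM per kilobase of annotated exon on a log axis; each point is 1 library, ghrelin above PBS within a gene. B2m, H2-Q10, H2-K1 and H2-D1 lie highest with narrow ranges, and the class II genes H2-Ab1, H2-Eb1 and H2-Aa spread widely in both groups.

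The classical class I genes H2-K1 and H2-D1 encode the heavy chains K and D of haplotype b. H2-K1 (ENSMUSG00000061232) lies on chromosome 17 from 33996017 to 34000347 on the minus strand, H2-D1 (ENSMUSG00000073411) on chromosome 17 from 35262730 to 35267499 on the plus strand, and B2m (ENSMUSG00000060802) on chromosome 2 from 122147686 to 122153083 on the plus strand, in GENCODE M21 on GRCm38, the assembly also named mm10. The upstream regions of H2-K1 and of the secreted class I gene H2-Q10 are shown because these heavy chains had the highest levels and matched different sets of known class I motifs. Each run is 250 bases before to 50 bases after a RefSeq start site on GRCm38.p6, read 5′ to 3′ on the gene's strand, with motif matches in capitals. Searched on both strands were enhancer A (the first run of capitals in H2-K1), the interferon response core (GAANNGAAA) and the Y box (CTGATTGG), and no match overlaps another. H2-K1 is chr17:34000284-34000583, minus strand, the more downstream of 2 listed start sites, and H2-Q10 is chr17:35469839-35470138, plus strand.
H2-K1: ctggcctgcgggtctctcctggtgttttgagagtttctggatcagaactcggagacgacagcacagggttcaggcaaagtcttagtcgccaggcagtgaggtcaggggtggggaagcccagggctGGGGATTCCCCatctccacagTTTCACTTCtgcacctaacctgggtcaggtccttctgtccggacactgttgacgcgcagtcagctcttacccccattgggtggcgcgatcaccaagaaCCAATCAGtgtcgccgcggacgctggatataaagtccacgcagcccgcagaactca
H2-Q10: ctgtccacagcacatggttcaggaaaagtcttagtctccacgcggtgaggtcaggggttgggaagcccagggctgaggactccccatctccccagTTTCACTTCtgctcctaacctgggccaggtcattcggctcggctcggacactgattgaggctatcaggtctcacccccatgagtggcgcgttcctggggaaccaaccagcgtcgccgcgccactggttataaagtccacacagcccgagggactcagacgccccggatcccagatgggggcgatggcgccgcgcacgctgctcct
In the H2-K1 window all 3 motifs match, with enhancer A beginning at position -125 from the start, whereas in the H2-Q10 window only the interferon response core matches, at position -155. Over the 32 members with a promoter entry, enhancer A matched in H2-K1, H2-D1 and H2-Q6 (0.0304% of 32851 promoters of the same length), and the interferon response core in 8 genes (7.52% of promoters). The Y box matched in 17 genes (4.10% of promoters). A match is a run of letters and not evidence of binding.

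H2-K1 had near-equal levels in the groups. Its lowest, median and highest values were 805, 808 and 922 CPM in ghrelin livers and 784, 829 and 937 CPM in PBS livers. The ranges covered each other nearly completely, with ghrelin 2 and PBS 2 the highest of their groups. Ghrelin over PBS gave a log2 fold change of -0.01 (SE 0.06), with a 95% interval of -0.14 to 0.13. H2-D1 had 321, 348 and 414 CPM in ghrelin livers and 330, 383 and 459 CPM in PBS livers. Again ghrelin 2 and PBS 2 were highest and the groups overlapped. Its log2 fold change was -0.11 (SE 0.08, interval -0.29 to 0.07, adjusted p = 0.593). B2m, without which class I heavy chains do not reach the cell surface, had 1089, 1127 and 1283 CPM in ghrelin livers and 1097, 1171 and 1315 CPM in PBS livers, a log2 fold change of -0.03 (SE 0.06, interval -0.17 to 0.10). Its highest values were in ghrelin 5 and PBS 4, not in the livers that were highest for the heavy chains.

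The non-classical class I genes, or class Ib, include a secreted molecule of the liver and ligands of receptors on NK cells and γδ T cells. H2-Q10 (ENSMUSG00000067235, chromosome 17, 35470089 to 35474563, plus strand) encodes a soluble class I molecule that the liver releases into blood. It had 1626, 1710 and 1754 CPM in ghrelin livers and 1490, 1620 and 1760 CPM in PBS livers. The ghrelin values lay within the upper part of the PBS range, and the groups overlapped. For H2-Q10 the log2 fold change was 0.07 (SE 0.06, interval -0.05 to 0.20, adjusted p = 0.633). Over the 14 tested class I heavy chain genes, scaled to exon length, H2-Q10 made up 43.3% ± 1.58 of the summed level in ghrelin livers and 41.3% ± 2.77 in PBS livers (SD, n = 6 each). Scaled to principal transcripts, the share was 50.1% ± 1.59 in ghrelin and 48.2% ± 2.73 in PBS livers.

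H2-T23, which encodes Qa-1, the ligand of the inhibitory NK receptor CD94/NKG2A, had 119, 133 and 150 CPM in ghrelin livers and 121, 138 and 153 CPM in PBS livers. The log2 fold change was -0.03 (SE 0.07, interval -0.18 to 0.12), and the groups overlapped over nearly the whole range. H2-T22 and H2-T10 encode near-identical ligands of γδ T cell receptors, and the annotation marks H2-T10 as a polymorphic pseudogene. H2-T22 averaged 62.6 ± 3.95 CPM in ghrelin and 61.6 ± 5.13 CPM in PBS livers (SD, n = 6 each), and H2-T10 averaged 1.39 ± 0.341 CPM in ghrelin and 1.31 ± 0.252 CPM in PBS livers. H2-M3 presents peptides that begin with N-formylmethionine, which bacteria and mitochondria make. It averaged 2.05 ± 0.138 CPM in ghrelin and 1.88 ± 0.496 CPM in PBS livers, and its log2 fold change was 0.11 (SE 0.17; adjusted p = 0.818).

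Among the Q genes, H2-Q6 and H2-Q7 encode Qa-2 antigens. H2-Q7 had 17.4, 19.7 and 27.4 CPM in ghrelin livers and 21.2, 24.2 and 31.9 CPM in PBS livers. Only ghrelin 2 and ghrelin 4 lay above the PBS median. Its log2 fold change was -0.25 (SE 0.12, interval -0.52 to 0.01, adjusted p = 0.399). H2-Q4 had 14.9, 17.9 and 23.5 CPM in ghrelin livers and 18.9, 22.04 and 26.0 CPM in PBS livers. In 5 of 6 ghrelin livers the value was below the lowest PBS liver, and ghrelin 2 alone lay inside the PBS range. The log2 fold change of -0.29 (SE 0.10, interval -0.51 to -0.07) had an unadjusted p of 0.0128 and an adjusted p of 0.264. H2-Q6 averaged 12.7 ± 1.78 CPM in ghrelin and 14.0 ± 2.50 CPM in PBS livers, and its log2 fold change was -0.14 (SE 0.12).

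The lower class Ib genes rest on fewer counts. H2-T24 averaged 4.12 ± 0.554 CPM in ghrelin and 3.82 ± 0.436 CPM in PBS livers, H2-Q1 2.46 ± 0.985 CPM in ghrelin and 2.63 ± 0.408 CPM in PBS livers, and H2-Q5 1.33 ± 0.339 CPM in ghrelin and 1.33 ± 0.471 CPM in PBS livers. H2-Q2 averaged 0.596 ± 0.173 CPM in ghrelin and 0.509 ± 0.252 CPM in PBS livers, and its interval of -0.44 to 0.91 was the widest of the 25 genes. Class I genes resemble each other, and how reads that map to several places were counted is not given in the sources used here. Of the 125-base windows in the longest transcript, the share that also occurs exactly in another gene was 0% for H2-K1, 3.44% for H2-D1, 5.85% for H2-Q10, 7.19% for H2-Q6, 9.28% for H2-Q7, 7.95% for H2-Q5 and 0.0405% for H2-Q4. For H2-Q1, H2-T22 and H2-T10 it was 6.32%, 2.93% and 1.56%. These percentages do not bound the uncertainty, since a low gene can share windows with a far higher one. H2-Q7 (23.2 CPM over all 12 libraries) does so with H2-Q10 (1658 CPM), H2-Q1 (2.54 CPM) with H2-D1 (371 CPM) and H2-T10 (1.35 CPM) with H2-T22 (62.1 CPM). The levels and differences of the low class Ib genes with shared windows are uncertain. Annotated exons of H2-Q4, H2-T22 and H2-T10 also overlap those of Gm11131, A930015D03Rik and BC023719, and the strand setting of the counting is not given.

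The remaining 14 class Ib genes did not pass the filter. H2-Bl had 49 counts and H2-Q3 35 counts over all 12 libraries. The others, H2-T3, which encodes the thymus leukaemia antigen of intestinal epithelium, H2-M2 and the H2-M1, H2-M5, H2-M9, H2-M10 and H2-M11 genes, had 0 to 3 counts in all. Over the whole group, 19 genes were not tested, of which 3 had 0 counts and 8 had 1 count; the highest mean among them was 0.470 CPM, that of H2-Ob.

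**Figure D2:**
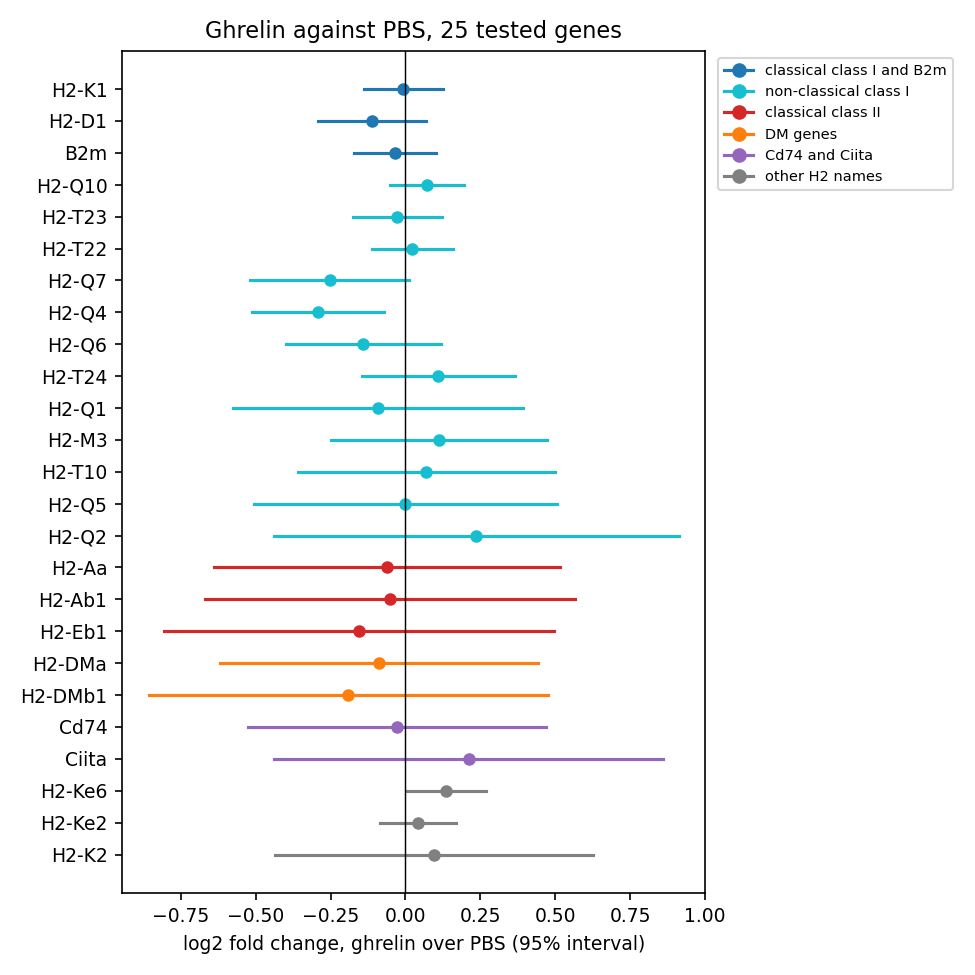
Log2 fold change of ghrelin over PBS (x axis) for the 25 tested genes, with points for the estimate and bars for its 95% interval, coloured by class. H2-K1, B2m and H2-Q10 have intervals within 0.20 of 0, those of the class II genes are wide and hold 0, and those of H2-Q4 and H2-Ke6 lie to one side of 0 before adjustment.

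Class II levels differed widely between livers within each treatment group. H2-Aa (ENSMUSG00000036594, chromosome 17, 34282744 to 34287823, minus strand) and H2-Ab1 (ENSMUSG00000073421, chromosome 17, 34257689 to 34269419, plus strand) encode the α and β chains of the I-A molecule. H2-Eb1 (ENSMUSG00000060586, chromosome 17, 34305867 to 34316674, plus strand) encodes the β chain of I-E. The upstream regions of H2-Aa and H2-Eb1 are shown because the levels of these genes moved together from liver to liver. Windows and capitals are as above; H2-Aa is chr17:34287774-34288073, minus strand, and H2-Eb1 is chr17:34305617-34305916, plus strand.
H2-Aa: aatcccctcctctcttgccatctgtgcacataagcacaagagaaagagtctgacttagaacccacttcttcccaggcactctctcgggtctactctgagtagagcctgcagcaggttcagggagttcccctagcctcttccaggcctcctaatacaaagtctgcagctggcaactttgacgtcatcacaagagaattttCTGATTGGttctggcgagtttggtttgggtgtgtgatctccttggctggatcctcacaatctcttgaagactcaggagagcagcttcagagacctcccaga
H2-Eb1: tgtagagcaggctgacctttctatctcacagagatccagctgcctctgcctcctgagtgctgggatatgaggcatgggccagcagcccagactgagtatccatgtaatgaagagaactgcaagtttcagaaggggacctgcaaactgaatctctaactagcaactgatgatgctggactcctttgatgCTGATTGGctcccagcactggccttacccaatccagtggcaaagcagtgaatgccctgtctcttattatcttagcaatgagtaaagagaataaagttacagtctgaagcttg
In these windows the Y box, the binding sequence of factor NF-Y in class II promoters, matches once each, at position -51 in H2-Aa and at position -62 in H2-Eb1, and neither of the other motifs matches. The Y box did not match for H2-DMa and H2-DMb1, which correlated with H2-Ab1 at r = 0.85 and 0.92. It did match for class Ib genes with almost no counts, such as H2-M9 (1 count) and H2-M11 (0 counts). A relation between the Y box and the levels was not tested.

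H2-Ab1 had 20.2, 38.6, 22.9, 17.5, 34.6 and 13.1 CPM in ghrelin livers 1 to 6. In PBS livers 1 to 6 it had 14.1, 37.3, 15.6, 30.6, 36.4 and 17.3 CPM. Livers ghrelin 2, ghrelin 5, PBS 2, PBS 4 and PBS 5 were high and the other 7 lower, with the widest step between neighbouring values at 22.9 and 30.6 CPM, so that high and low livers stood in both groups. Between the groups the log2 fold change of H2-Ab1 was -0.05 (SE 0.29), and the 95% interval of -0.67 to 0.57 leaves room for sizeable differences in either direction. The same 5 livers were above the widest step for H2-Aa, H2-Eb1 and Cd74.

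H2-Aa had 17.2, 26.4 and 41.8 CPM as the lowest, median and highest value in ghrelin livers, and 16.7, 27.7 and 45.0 CPM in PBS livers. H2-Eb1 had 10.5, 15.4 and 29.0 CPM in ghrelin livers and 9.48, 17.3 and 31.4 CPM in PBS livers. For both genes ghrelin 6 and PBS 1 were lowest and ghrelin 2 and PBS 2 highest in their groups, and the groups overlapped. The log2 fold changes were -0.06 (SE 0.27) for H2-Aa and -0.15 (SE 0.31) for H2-Eb1. The classical class II gene H2-Eb2 was not tested, with 13 counts in 4 libraries, 9 of them in ghrelin 6.

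Cd74 (ENSMUSG00000024610, chromosome 18, 60803848 to 60812652, plus strand) encodes the invariant chain, which guides new class II molecules to the compartment where they bind peptide. It had 49.3, 57.5 and 104 CPM in ghrelin livers and 44.1, 65.6 and 101 CPM in PBS livers, with a log2 fold change of -0.03 (SE 0.23, interval -0.52 to 0.47). Its high and low livers were those of the I-A chains. Ciita (ENSMUSG00000022504, chromosome 16, 10480059 to 10528418, plus strand), the transactivator on which class II transcription depends, had 1.32, 1.56 and 2.39 CPM in ghrelin livers and 0.419, 1.39 and 2.67 CPM in PBS livers. PBS 1, a liver with low class II, had the lowest Ciita value and PBS 5 the highest. For Ciita the log2 fold change was 0.21 (SE 0.31, interval -0.44 to 0.86), and the gene rests on 369 counts in all. Its exons overlap those of Dexi, and how reads in such overlaps were counted is not given.

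The non-classical class II genes encode DM, which exchanges peptides on class II molecules, and DO, which inhibits DM. H2-DMa averaged 2.61 ± 0.788 CPM in ghrelin and 2.75 ± 1.02 CPM in PBS livers (log2 fold change -0.09, SE 0.25), and its exons overlap those of Brd2. H2-DMb1 averaged 1.98 ± 0.656 CPM in ghrelin and 2.22 ± 1.06 CPM in PBS livers (log2 fold change -0.19, SE 0.31), and 8.91% of its windows are shared with H2-DMb2. The other 3 were not tested. H2-Ob had 56 counts in ghrelin and 58 in PBS livers, H2-DMb2 had 29 in ghrelin and 20 in PBS livers, and H2-Oa had 22 in ghrelin and 17 in PBS livers. H2-Ob, H2-DMb2 and H2-Eb2 were highest within the ghrelin group in ghrelin 6, the ghrelin liver with the lowest H2-Aa, H2-Ab1, H2-Eb1 and Cd74. These ghrelin 6 values rest on 22, 11 and 9 counts, and H2-Oa was highest in ghrelin 1. The PBS group differed. There H2-Ob and H2-Eb2 were highest in PBS 2, the PBS liver with the highest H2-Aa, H2-Ab1, H2-Eb1 and Cd74, and H2-DMb2 in PBS 3.

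**Figure D3:**
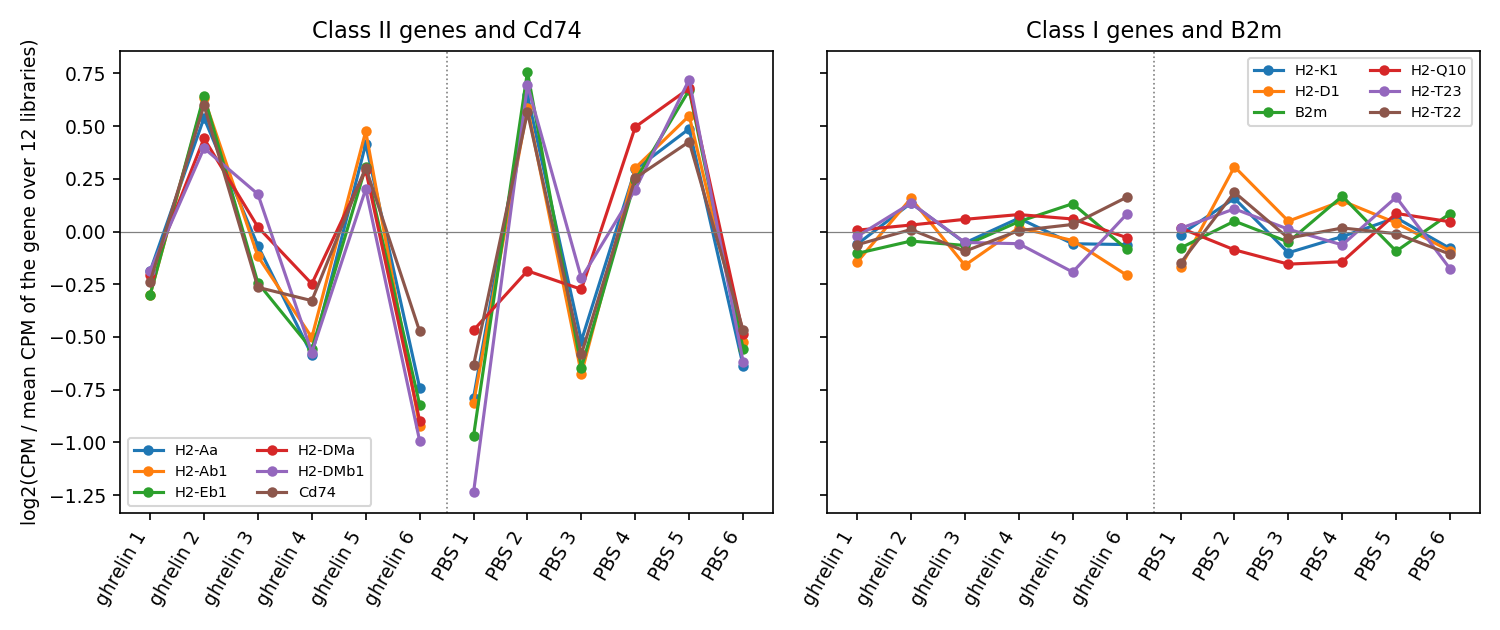
Log2 of the CPM in each library over the gene's mean of 12 libraries, for class II genes and Cd74 (left) and class I genes and B2m (right); lines join libraries of a group only to guide the eye, and ghrelin libraries stand left of PBS libraries. The 6 class II lines rise and dip in the same livers of both groups, apart from H2-DMa in PBS 2, and the lines of the 6 class I genes drawn stay within a narrower band.

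Class II genes had a wide spread between livers for their level, and class I genes ranged from narrow to wide. The SD of log2 CPM within the groups was 0.57 for H2-Aa, 0.62 for H2-Ab1, 0.64 for H2-Eb1 and 0.49 for Cd74. These were larger than the SDs of 98.9%, 99.0%, 99.2% and 98.4% of the genes with a mean level within a factor of 2 of theirs. The SDs of H2-DMa (0.47), H2-DMb1 (0.63) and Ciita (0.61) exceeded those of 89.6%, 95.9% and 93.8% of genes of like level. For class I, H2-K1 had an SD of 0.09, H2-D1 0.15, B2m 0.10 and H2-Q10 0.08, larger than 15.9%, 62.3%, 21.3% and 9.32% of genes of like level. Some class Ib genes varied more for their level: H2-Q7 had an SD of 0.24, H2-Q1 0.42, H2-Q6 0.23 and H2-Q4 0.19, above 88.3%, 83.6%, 81.0% and 77.2% of genes of like level. From the lowest to the highest of the 12 livers, H2-Eb1 spanned 3.31-fold, H2-Ab1 2.94-fold and Cd74 2.35-fold. Of the class Ib genes, H2-Q4 spanned 1.75-fold, H2-Q7 1.83-fold, H2-Q1 3.05-fold and H2-Q5 3.21-fold. These values describe the 12 livers and carry no test.

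**Figure D4:**
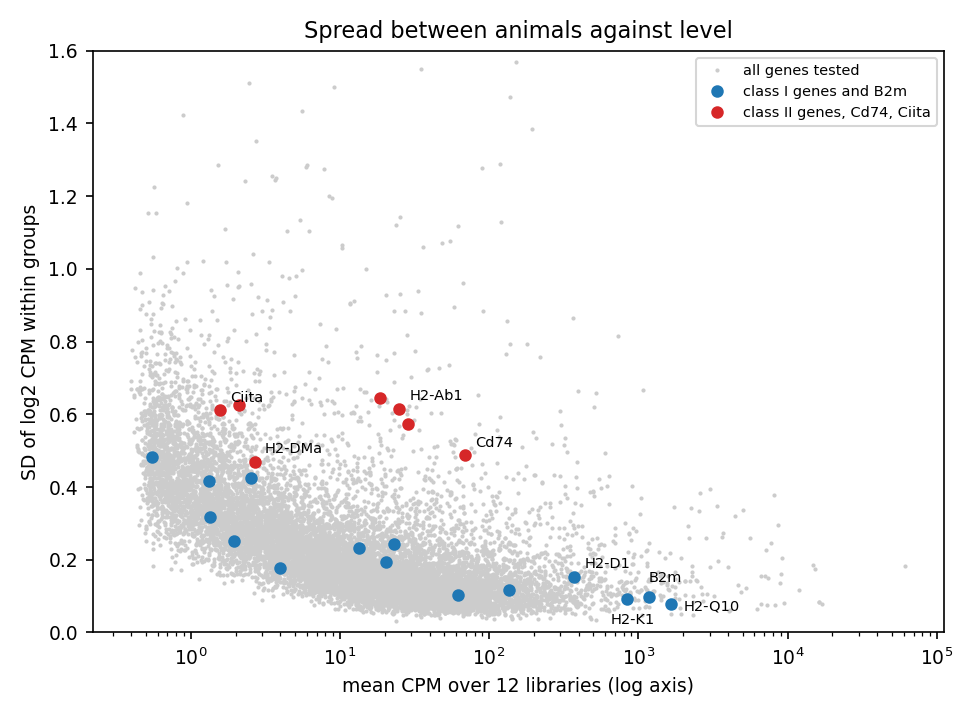
SD of log2 CPM within the treatment groups (y axis) against mean CPM over 12 libraries (log x axis) for all genes tested, with class I genes and B2m in blue and class II genes, Cd74 and Ciita in red; 11 genes lie above the axis limit. H2-Ab1 (SD 0.62) and Cd74 (0.49) lie above most genes of their level, and H2-K1 (0.09), B2m (0.10) and H2-Q10 (0.08) lie low.

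Within class II, the genes moved together across livers. The 15 pairs among H2-Aa, H2-Ab1, H2-Eb1, H2-DMa, H2-DMb1 and Cd74 had Pearson correlations of log2 CPM of 0.77 to 0.99 with a median of 0.94. The 105 pairs among the 15 tested class I genes ran from -0.61 to 0.89 with a median of 0.34, and the 90 pairs between the classes from -0.45 to 0.80 with a median of 0.30; the points are the same 12 libraries throughout. Of 10 pairs chosen for a permutation test with 100000 resamples, H2-Ab1 and H2-Aa had r = 0.99 and rho = 0.97 (p = 2e-05, adjusted p = 0.0002 for each). The relation stayed at r = 0.98 without PBS 2 and ghrelin 2, the livers farthest from the median of H2-Ab1, and was 0.99 within ghrelin and 0.99 within PBS livers. H2-Ab1 and Ciita had r = 0.69 (p = 0.00364, adjusted p = 0.0182) and rho = 0.78 (p = 0.00441, adjusted p = 0.0220), with r = 0.69 without the same 2 livers, 0.76 within ghrelin and 0.79 within PBS livers. By the permutation test the adjusted p of r was 0.0727 without ghrelin 2 alone and 0.0519 without PBS 5 alone.

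Among class I genes the relations were looser or rested on few livers. H2-K1 and H2-D1 had r = 0.72 (permutation p = 0.00877, adjusted p = 0.0292) and rho = 0.51 (p = 0.0940, adjusted p = 0.188). Without PBS 2 and ghrelin 2 the r was 0.33, so the relation rested on those livers. It was 0.92 within ghrelin and 0.64 within PBS livers. Leaving out any 1 of ghrelin 1, ghrelin 2, ghrelin 3, PBS 2, PBS 5 and PBS 6 took the adjusted permutation p to 0.0507 (without ghrelin 3) to 0.227 (without PBS 2). H2-K1 and B2m had r = 0.01 (adjusted p = 0.972 by permutation), and H2-K1 and H2-Q10 had r = 0.14 (adjusted p = 0.838). With the transactivator Nlrc5 the r of H2-K1 was 0.35 (adjusted p = 0.372 by permutation). H2-K1 and H2-Ab1 had r = 0.62 (adjusted p = 0.0840) and 0.33 without PBS 2 and ghrelin 2. That pair passed the threshold without ghrelin 4 (r = 0.71, adjusted p = 0.0342) and without ghrelin 5 (r = 0.73, adjusted p = 0.0336).

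Markers of the cells that carry class II, and of sinusoidal endothelium, were compared with H2-Ab1 liver by liver. All 8 Kupffer cell markers were measured, and their summed level was 232 to 327 CPM in ghrelin and 178 to 331 CPM in PBS livers. The lowest sum was in PBS 1 and the highest in PBS 2, the PBS livers with the lowest and highest H2-Ab1, but other livers departed from that order. In the livers high in H2-Ab1 the sum was 257 CPM (ghrelin 2), 278 (ghrelin 5), 331 (PBS 2), 249 (PBS 4) and 296 (PBS 5). In the lower ones it was 232, 232, 237 and 327 CPM (ghrelin 1, 3, 4 and 6) and 178, 314 and 262 CPM (PBS 1, 3 and 6). Ghrelin 6 had the least H2-Ab1. The Kupffer marker Clec4f had r = 0.56 with H2-Ab1 (permutation p = 0.0523, adjusted p = 0.105), -0.14 within ghrelin and 0.84 within PBS livers; without ghrelin 6 the r was 0.76 (adjusted p = 0.00487). Summed dendritic cell markers, 2 of 6 with enough counts to test, were 10.4 to 14.3 CPM in ghrelin and 11.3 to 13.3 CPM in PBS livers, a narrower range than that of H2-Ab1. Most of that sum came from Zbtb46, which averaged 8.03 CPM in ghrelin and 8.13 CPM in PBS livers. The markers not tested, Cd209a, Xcr1, Flt3 and Itgax, had 20, 30, 64 and 119 counts. The sum therefore mostly follows Zbtb46 and cannot show how far dendritic cells varied. Summed B cell markers, 2 of 6 tested, were 4.26 to 14.2 CPM in ghrelin livers, with ghrelin 6 highest, and 4.82 to 18.3 CPM in PBS livers, with PBS 2 highest. Here most came from Ighm, which averaged 6.48 CPM in ghrelin and 7.17 CPM in PBS livers. Cd79a, of the B cell receptor complex, had r = -0.08 with H2-Ab1 (adjusted p = 0.908 by permutation) and rests on 46 counts. Summed markers of sinusoidal endothelium, all 6 tested, were 431, 434, 442, 416 and 395 CPM in ghrelin 2, ghrelin 5, PBS 2, PBS 4 and PBS 5. In the livers lower in H2-Ab1 they were 428, 405, 404 and 426 CPM (ghrelin 1, 3, 4 and 6) and 388, 425 and 396 CPM (PBS 1, 3 and 6). The leukocyte gene Ptprc had 10.6 to 18.7 CPM in ghrelin and 8.80 to 16.0 CPM in PBS livers. No marker of any list was at 0 in every library. The part of these cells in the class II levels was not tested beyond the correlations given.

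The genes whose pattern over 12 livers was most like that of H2-Ab1, outside the group, were C4b (r = 0.88), Gm1966 (0.88), Nfkbie (0.87), Irf8 (0.86) and Serping1 (0.86). C4b encodes complement component C4 and lies in the histocompatibility region, Nfkbie encodes an inhibitor of NF-κB, Irf8 a transcription factor of myeloid cells, and Serping1 the inhibitor of complement C1. C4b averaged 1372 CPM in ghrelin and 1380 CPM in PBS livers, and Irf8 7.12 CPM in ghrelin and 8.22 CPM in PBS livers. For H2-K1 they were AC123935.1 (r = 0.89), Usp21 (0.85), Ctu1 (0.82), Prom1 (0.80) and Ap1g2 (0.80). These are the highest of all genes tested and carry no test.

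Genes that make and load the peptides of class I also gave 0 calls by edgeR. Of the 13 tested, 9 had positive and 4 negative log2 fold changes with a median of 0.03, and 1 in each direction had an unadjusted p under 0.05 (6.44% of all genes tested were higher and 6.94% lower at that limit). Those were Calr, a chaperone of the loading complex, at 0.23 (SE 0.11, adjusted p = 0.366), and Erap1, which trims peptides, at -0.12 (SE 0.06, adjusted p = 0.371). Pdia3, the oxidoreductase of the complex, had 0.17 (SE 0.11) and Psmb10, of the immunoproteasome, -0.10 (SE 0.08). The peptide transporter genes Tap1 and Tap2 averaged 19.2 ± 3.33 and 13.9 ± 1.28 CPM in ghrelin livers, against 18.2 ± 6.70 and 13.5 ± 1.65 CPM in PBS livers.

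Among 10 genes that control class I, 4 had positive and 6 negative values with a median of -0.03, and 0 were called by edgeR; 2 had an unadjusted p under 0.05 (13.4% over all genes tested). Irf1, a transcription factor induced by interferon-γ that binds class I promoters, had 37.5, 40.7 and 43.9 CPM in ghrelin livers and 19.4, 29.2 and 33.8 CPM in PBS livers. All 6 ghrelin livers lay above the highest PBS liver, and the groups lay apart, in either direction, in 0.826% of all genes tested. Irf1 had a log2 fold change of 0.53 (SE 0.11, interval 0.30 to 0.76) and an adjusted p of 0.0841. DESeq2 called this gene (adjusted p = 0.00243), as did edgeR without the filter on low counts (0.0191), without PBS 5 (0.0495) and without PBS 6 (0.0463). In the other 15 settings the adjusted p was 0.0545 to 0.184. Ifngr2, a chain of the interferon-γ receptor, averaged 16.6 ± 0.636 CPM in ghrelin and 14.1 ± 1.76 CPM in PBS livers (log2 fold change 0.24, SE 0.08, adjusted p = 0.248). Nlrc5 averaged 22.4 ± 6.87 CPM in ghrelin and 27.3 ± 7.54 CPM in PBS livers (-0.29, SE 0.20), and Rela, a subunit of NF-κB, had a log2 fold change of -0.09 (SE 0.08).

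The genes around class II likewise gave 0 calls by edgeR. Of 6 processing genes 2 had positive and 4 negative values with a median of -0.07. An unadjusted p under 0.05 was seen for 0 of them, against 13.4% of all genes tested. Ctsb and Ctss, cathepsins of the endosome, had log2 fold changes of 0.06 (SE 0.05) and -0.12 (SE 0.14), Ifi30, the thiol reductase, -0.14 (SE 0.12), and March1, which marks class II molecules for turnover, -0.17 (SE 0.26). Of 7 factors that bind class II promoters with Ciita, 4 were positive and 3 negative with a median of 0.01. Creb1 had -0.19 (SE 0.07, unadjusted p = 0.0239, adjusted p = 0.300). It was the only 1 of the 7 at an unadjusted p under 0.05, against 13.4% of all genes tested. Rfxank had 0.16 (SE 0.14), Nfya -0.08 (SE 0.12) and Nfyb -0.07 (SE 0.11).

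Of 20 interferon response genes 19 were tested, 7 positive and 12 negative with a median of -0.05, and 0 were called by edgeR, with 3 higher and 1 lower at an unadjusted p under 0.05 (6.44% higher and 6.94% lower over all genes tested). Gbp7, a guanylate-binding protein, averaged 17.1 ± 2.18 CPM in ghrelin and 21.1 ± 3.93 CPM in PBS livers (log2 fold change -0.31, SE 0.12, adjusted p = 0.285). The antiviral gene Rsad2 averaged 9.03 ± 2.07 CPM in ghrelin and 7.03 ± 0.763 CPM in PBS livers (0.35, SE 0.14, adjusted p = 0.297). Oasl2 (0.35, SE 0.16) and Ifit3 (0.25, SE 0.10) completed the 4. Socs1, with 57 counts, was not tested.

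The 4 genes that share the H2 name gave 3 tested genes. H2-Ke6 encodes a hydroxysteroid dehydrogenase and had 39.7, 41.8 and 45.8 CPM in ghrelin livers and 33.6, 39.4 and 41.7 CPM in PBS livers. The groups overlapped, with PBS 2, PBS 3 and PBS 4 below all ghrelin livers. The log2 fold change was 0.14 (SE 0.06), with an unadjusted p of 0.0450 and an adjusted p of 0.359; 89.6% of its windows also occur in the overlapping gene Gm20427, so its counts are uncertain. H2-Ke2, named Pfdn6 in GENCODE M21 and encoding a prefoldin subunit, averaged 16.0 ± 0.519 CPM in ghrelin and 15.6 ± 0.902 CPM in PBS livers. The pseudogene H2-K2 averaged 2.46 ± 0.685 CPM in ghrelin and 2.31 ± 0.904 CPM in PBS livers, and the pseudogene H2-Pb had 1 count.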

How the data were processed

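Total RNA from 12 livers was made into stranded libraries after removal of ribosomal RNA, per the labels' protocols. The deposited table holds raw exon read counts per gene, which the authors had not normalised; alignment used STAR 2.4.0i against mm10, per the submitters' processing notes. How reads were counted (software, annotation, strand, multi-mapping) is not given in the sources used here. Libraries of a group differed by 11.6 to 48.5 times counting variance (chi-square per degree of freedom), with no sign of a repeat deposit.

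Low-count genes were removed with filterByExpr (minimum count 10, minimum total 15) of edgeR 4.0.16 in R 4.3.3, which left 14170 genes. TMM factors were applied and groups compared by the two-sided quasi-likelihood F test (common biological coefficient of variation 0.145), with Benjamini-Hochberg adjustment over all genes and calls at an adjusted p under 0.05. The SE is the absolute log2 fold change over the square root of F; 95% intervals use the t quantiles of that test. CPM use TMM factors; correlations and SDs use log2 CPM with a prior count of 2 and scipy 1.17.1. Fits were tested on simulated data. DESeq2 1.42.0, other scalings, filters, robust estimation, a replicate block and leaving out each library were alternatives.

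Positions, lengths and shared windows come from GENCODE M21 (all 44 genes matched), promoters from RefSeq GRCm38.p6 (32 of 44 matched). Members and gene lists were chosen with earlier results of these data known. Named are the classical, DM and DO genes, B2m, Cd74, Ciita, other members at 1 CPM or more, up to 4 genes per pathway list with the smallest p, and the 5 genes most like H2-K1 and H2-Ab1. H2-Q2, H2-Bl, H2-Q3, H2-Eb2, Tap1, Tap2, Socs1 and H2-Pb were named after their values were seen. The result of 1 of the 10 tested pairs is not reported here.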

Additional observations from a re-analysis of the deposited data

Results flagged for a closer look

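In 50 groups of values, one for each of the 25 tested genes in each treatment group, 2 held a library far from the rest, and chance gives about 1 in 20 groups. H2-Q5, a polymorphic pseudogene of class Ib, had 0.693 CPM in ghrelin 3, where the nearest ghrelin liver had 1.30 CPM. The pseudogene H2-K2 had 3.79 CPM in ghrelin 6, where the nearest ghrelin liver had 2.57 CPM. Both genes were low, with 314 and 567 counts over the 12 libraries.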

How the results depend on the processing

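In 19 alternatives, 0 of the 470 fold changes of the histocompatibility genes with an adjusted p were called (474 in all; DESeq2 gave none to 4 genes), the lowest adjusted p being 0.139 (H2-Q7 with the replicate block), and 44 values in 12 genes changed sign. Leaving out 1 library in turn gave log2 fold changes of -0.19 to 0.12 for Cd74, -0.20 to 0.11 for H2-Aa, -0.22 to 0.10 for H2-Ab1, -0.20 to 0.094 for H2-DMa, -0.35 to 0.038 for H2-Eb1, -0.034 to 0.029 for H2-K1, -0.076 to 0.26 for H2-K2, -0.30 to 0.041 for H2-Q1, -0.086 to 0.22 for H2-Q5, -0.011 to 0.19 for H2-T10, -0.0066 to 0.070 for H2-T22 and -0.061 to 0.0089 for H2-T23. With the replicate block Cd74 had 0.0044 and H2-Q5 0.015, and H2-Q5 had 0.0058 at a mean of at least 1 CPM. Over all genes, 63 were called without a filter, 221 by DESeq2, 9 with robust estimation, 58 with the replicate block and 0 (without ghrelin 1 or ghrelin 3) to 32 (without ghrelin 4) without 1 library. The class I control list had 1 call, Irf1, without a filter and by DESeq2, and 0 to 1 without 1 library; DESeq2 called 1 hepatocyte marker, Cps1. Without 1 library, r was 0.55 to 0.82 for H2-K1 with H2-D1, -0.11 to 0.12 with B2m, -0.087 to 0.42 with H2-Q10 and 0.53 to 0.73 with H2-Ab1, and 0.64 to 0.76 for H2-Ab1 with Ciita, -0.27 to 0.31 with Cd79a and 0.45 to 0.76 with Clec4f. The cause of these moves was not tested. Equal numbers in the groups correlated at -0.08 to 0.27, not over 0.1 in every pair, so the pairing was not used. H2-Q2 had the fewest counts of the tested histocompatibility genes (129).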

Other observations

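Between H2-T3 and H2-M5 on chromosome 17 lie 11 class Ib genes of the group. All 8 on the minus strand had exactly 1 count in the library PBS 2, and 7 of them had no count in any other library, while the 3 on the plus strand had 0 counts. H2-T3 had 1 further count. These values enter no comparison.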
